A study of Nannochloropsis oceanica with 6 samples.

Results

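RNA sequencing of the oil-storing marine microalga Nannochloropsis oceanica IMET1 was used to compare cells kept for 2 days without nitrogen (N2, 2 libraries) with cells kept for 1 day without nitrogen (N1, 2 libraries). The groups were taken from the sample titles, and the second N2 library, which carries no treatment label, was placed by its title alone. These are 4 of the 6 libraries of the series, the others being 2 nitrogen-replete libraries (C0) harvested in logarithmic growth. All cells were grown at first in nitrate-containing f/2 medium under continuous light (80 µmol m-2 s-1), and C0 was harvested there. Cells for N1 and N2 were rinsed with nitrogen-free medium, moved to it and lit continuously at 50 µmol m-2 s-1, so N1 and N2 share the strain, the medium and the light and differ by the day. No nitrogen-replete culture of the same age was among these libraries, so that the second day without nitrogen and the second day in the new culture cannot be told apart. The study calls the libraries of a group biological replicates. Whether they came from separate culture vessels is not stated, so that the p-values measure the spread between these libraries, whatever its source.

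When nitrogen runs out, microalgal cells cease to divide, take up any nitrogen left in the medium, recover nitrogen from their own proteins and pigments, and lay down fixed carbon as storage compounds. In Nannochloropsis the main store is triacylglycerol, held in lipid droplets that are coated by a lipid droplet surface protein. Light harvesting, carbon fixation and fatty acid synthesis take place largely in the plastid, while triacylglycerol is assembled on internal membranes.

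The files held 10569 genes, and the 9736 with at least 1 CPM (counts scaled to a common library size) in at least 2 of the 6 libraries were tested with edgeR. The N1 libraries held 5202554 and 4875888 counts, and the N2 libraries held 6523021 and 6379149. Levels below are CPM scaled by edgeR's trimmed mean of M values (TMM), and a log2 fold change is N2 over N1 with its standard error. A gene is said to have risen or fallen only where edgeR's adjusted p was below 0.05. CPM is a share of the library, so that neither the RNA content of a cell nor the number of cells is measured. Genes are given by the identifiers of the files, in which the digits after NO were read as the chromosome number from the naming scheme alone, so that genes are called neighbours by their identifiers and not by a map.

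Between the first and the second day 2861 genes rose, 29.4% of those tested, and 2772 fell, 28.5% of those tested. A further 4103 genes did not pass the test. The shares of 29.4% and 28.5% are those to set beside each count of list members below. Changes of at least 2-fold were made by 847 rising genes (8.70% of those tested) and by 356 falling genes (3.66%). Among the 5633 genes called in either direction, 12 had N1 and N2 libraries that overlapped, against 2124 of all 9736 genes tested. A lack of overlap was thus common to nearly all called genes and adds little to a call. The median log2 fold change over all genes was 0.0046, and the mean was 0.079. The median depended on the level of the gene, at 0.29 in the lowest of 4 equal groups of genes by mean CPM and -0.13 in the highest. The N2 libraries were also the deeper ones, and with all libraries thinned to the lowest total, an alternative chosen after seeing the data, these medians were 0.29 and -0.13. Scaling by library totals alone raised the median of all genes to 0.10 and the share of rises among calls from 50.8% to 61.1%.

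**Figure D1:**
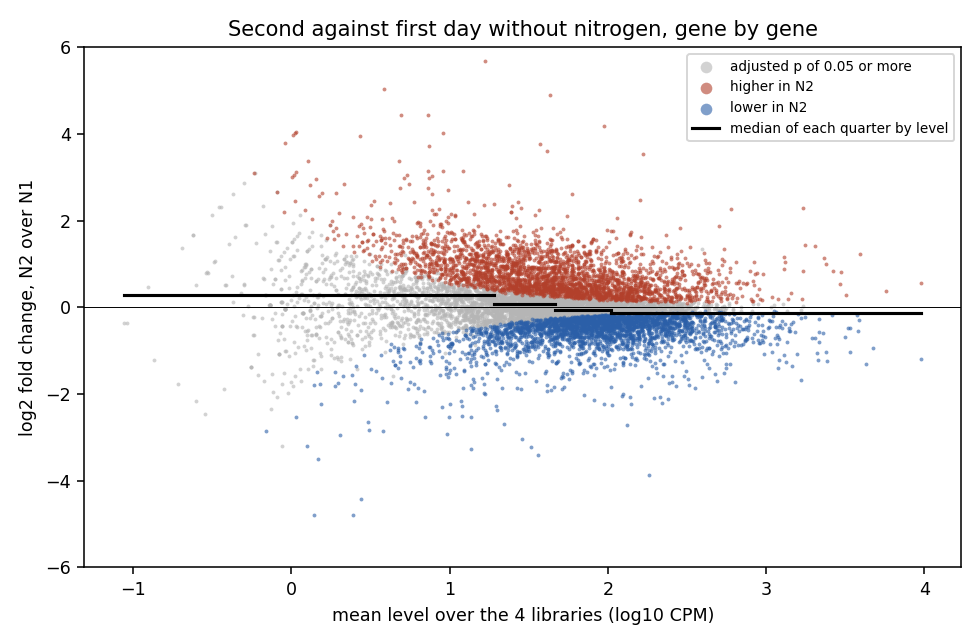
Each point is a gene, with its mean level over the 4 libraries (log10 CPM) on the horizontal axis and its log2 fold change of N2 over N1 on the vertical axis. Black lines give the median change in each of 4 equal groups of genes by level, which goes from 0.29 at the lowest levels to -0.13 at the highest, and 69 genes with no counts in either N1 or N2 are left out, as is 1 gene beyond the axis.

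Genes of nitrogen uptake and assimilation were mostly lower on the second day, although the nitrate transporter and nitrite reductase rose further. Of 20 members tested, 6 rose, 11 fell and 3 did not pass, against 29.4% and 28.5% of all genes, and their median log2 fold change was -0.30. Their summed level was 44460 and 44390 CPM in N1 and 34710 and 36350 CPM in N2, beside 3972 and 3900 CPM in C0. The sum was carried by a few genes of high level. Of the 20 members, 12 had all N1 and N2 libraries above both C0 libraries, 5 had them all below, and 3 had neither order.

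The ammonium transporter NO09G03110, which carries ammonium into the cell, had the highest level per length of this list and stood at 13425 and 13113 CPM in N1 and 5604 and 6073 CPM in N2, with 434 and 434 CPM in C0. It fell by 1.18 ± 0.028 on the log2 scale (adjusted p = 8.85e-13). A second ammonium transporter, NO30G00980, described as Rh type B, stood at 1668 and 1723 CPM in N1 and 700.5 and 760.0 CPM in N2, with 41.3 and 43.5 CPM in C0, and fell by 1.22 ± 0.046. For both genes every N2 library was below every N1 library and above every C0 library.

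NO20G02430, another gene described as an ammonium transporter, behaved in the opposite way. Its level was 55.1 and 49.03 CPM in N1 and 67.5 and 71.7 CPM in N2, and it rose with a log2 fold change of 0.42 ± 0.085 (adjusted p = 0.000802). C0 was at 299 and 280.5 CPM, so that both starved groups were below the replete one.

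The high affinity nitrate transporter NO14G02450 stood at 7599 and 7613 CPM in N1 and 11300 and 11321 CPM in N2, with 205 and 202 CPM in C0, and rose with a log2 fold change of 0.57 ± 0.016 (adjusted p = 2.79e-12). Its estimated counts were not whole in every library, which can arise where reads are divided among loci. Such counts are pointed out for some genes only, so a gene without this remark can have them too. Ferredoxin-nitrite reductase NO26G00710, which reduces nitrite to ammonium, stood at 4927 and 5048 CPM in N1 and 6272 and 6601 CPM in N2 and rose with a log2 fold change of 0.37 ± 0.026. In both genes the 2 days did not overlap and the higher day was the second.

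Nitrate reductase NO14G02460, which makes nitrite from nitrate and lies beside the nitrate transporter by its identifier, was at 4266 and 4218 CPM in N1 and 3288 and 3649.5 CPM in N2 and fell by 0.29 ± 0.039. The second nitrate reductase, NO25G00630, was at 164 and 178 CPM in N1 and 167 and 166 CPM in N2, with a log2 fold change of -0.038 ± 0.061 (adjusted p = 0.628). Its N1 and N2 libraries overlapped, and it was not called. The 3 steps from nitrate in the medium to ammonium in the plastid thus held 2 genes that rose, 1 that fell and 1 that did not pass.

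Ammonium is built into amino acids by glutamine synthetase and glutamate synthase. Glutamine synthetase NO07G03230 stood at 4502 and 4558 CPM in N1 and 2108 and 2306 CPM in N2, with 551 and 527 CPM in C0, and fell by 1.04 ± 0.037. The NADH-dependent glutamate synthase NO08G04050 stood at 3894 and 3909 CPM in N1 and 2712 and 2939 CPM in N2 and fell by 0.47 ± 0.036. Its neighbour NO08G04040, of the same description, stood at 1210.4 and 1229 CPM in N1 and 737 and 777 CPM in N2 and fell by 0.69 ± 0.045. The ferredoxin-dependent glutamate synthase NO10G02290 stood at 623 and 595 CPM in N1 and 505 and 480.4 CPM in N2 and fell by 0.31 ± 0.046. All of these enzymes were thus lower in every N2 library than in every N1 library.

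The glutamate dehydrogenases moved apart. The NADP-specific enzyme NO16G00690 stood at 1739.9 and 1813 CPM in N1 and 817 and 851 CPM in N2 and fell by 1.09 ± 0.039. In contrast, the NAD-specific enzyme NO01G02980, which in other organisms mainly breaks glutamate down to ammonium and 2-oxoglutarate, stood at 75.9 and 81.6 CPM in N1 and 229.8 and 259 CPM in N2, with 76.2 and 79.8 CPM in C0, and rose with a log2 fold change of 1.63 ± 0.074 (adjusted p = 3.27e-10). Its N1 libraries were at the level of C0, and both N2 libraries lay above them.

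Urease, which frees ammonium from urea, was lower on the second day at both of its loci. NO02G06090 stood at 684 and 676 CPM in N1 and 356 and 347 CPM in N2 and fell by 0.95 ± 0.044, and NO02G06110 stood at 714 and 712 CPM in N1 and 396 and 370.2 CPM in N2 and fell by 0.90 ± 0.046. The accessory genes that load nickel into urease fell as well, NO17G01380 (accessory protein G) by 0.96 ± 0.049 and NO14G02290 (accessory protein D) by 0.82 ± 0.084. Counts of both urease loci were not whole, and reads shared between the loci could have been divided between them. The list also holds NO12G02010, a folylpolyglutamate synthase, which makes folate cofactors and which KEGG files under folate biosynthesis, not nitrogen metabolism. It is counted among the members that rose. Its level was 18.04 and 21.95 CPM in N1 and 35.2 and 32.9 CPM in N2, the largest called rise of the list, of 0.77 ± 0.13.

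**Figure D2:**
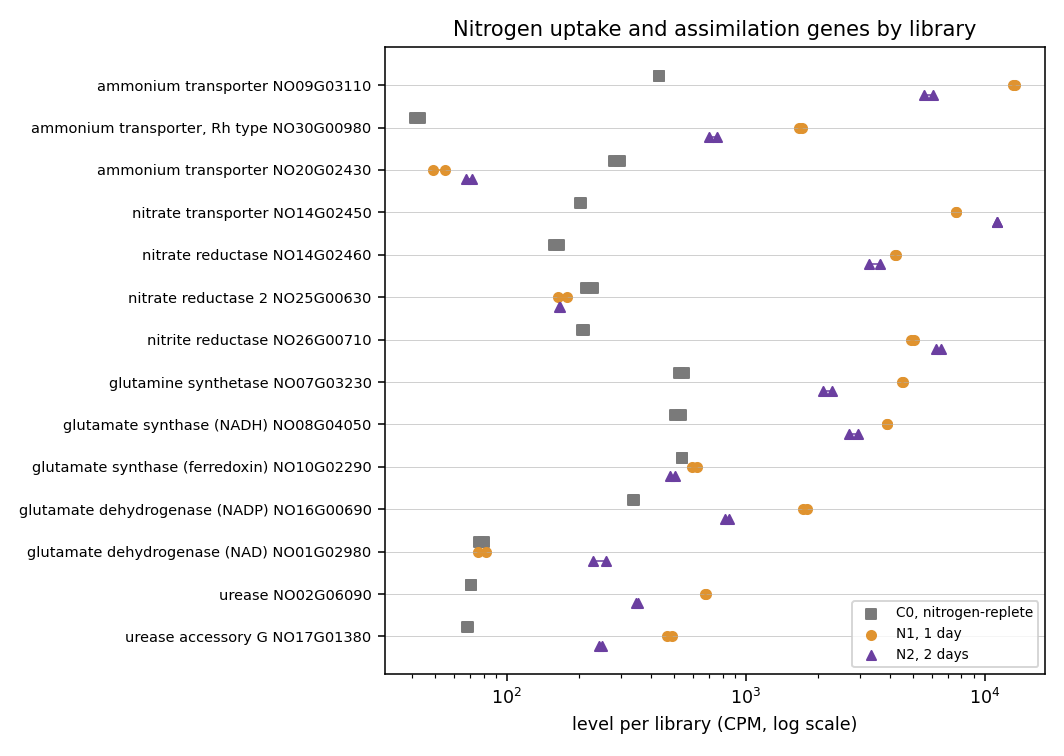
Level of 14 nitrogen genes in each library (CPM, log scale), with squares for C0, circles for N1 and triangles for N2. Most genes lie at their highest in N1, whereas the nitrate transporter NO14G02450, nitrite reductase NO26G00710 and the NAD-specific glutamate dehydrogenase NO01G02980 lie at their highest in N2. The ammonium transporter NO20G02430 and the nitrate reductase NO25G00630 lie at their highest in C0.

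The KEGG lists that surround nitrogen assimilation were also lower more often than higher. In nitrogen metabolism 4 of 14 members rose and 9 fell, with a median log2 fold change of -0.37. In arginine biosynthesis 6 of 21 members rose and 12 fell, with a median of -0.35. In the biosynthesis of amino acids 45 of 162 rose and 70 fell, with a median of -0.12. Tyrosine aminotransferase NO06G02540, which interconverts tyrosine and its keto acid, stood at 17.05 and 16.2 CPM in N1 and 107 and 97.4 CPM in N2, with 84.6 and 80.6 CPM in C0, and rose with a log2 fold change of 2.62 ± 0.11. It was among the 12 largest rises of genes with a named function. Carbonic anhydrase NO20G00630, which KEGG files under nitrogen metabolism and which interconverts carbon dioxide and bicarbonate, stood at 808 and 817 CPM in N1 and 302 and 309 CPM in N2 and fell by 1.41 ± 0.04.

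Genes of light harvesting and photosynthesis were lower on the second day almost without exception. Of 24 antenna proteins 23 fell and none rose, with a median log2 fold change of -0.72 that ranged from -0.76 to -0.62 over the alternatives tried. Of 16 nuclear photosynthesis genes in KEGG 14 fell and none rose, with a median of -0.55. The antenna genes together made up 14460 and 15170 CPM in N1 and 9087 and 9465 CPM in N2, beside 16940 and 17060 CPM in C0. Antenna genes belong to a family of similar sequences, and reads shared between members could have been divided among them.

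NO08G03500, a chlorophyll a-b binding protein and the antenna gene of highest level per length, stood at 715 and 739 CPM in N1 and 512 and 520.1 CPM in N2 and fell by 0.49 ± 0.046 (adjusted p = 4.86e-07). NO09G00440, a fucoxanthin-chlorophyll a-c binding protein, stood at 745 and 848 CPM in N1 and 271 and 289 CPM in N2, with 1656 and 1656 CPM in C0, and made the largest called fall among antenna genes at a mean of at least 10 CPM, by 1.51 ± 0.056. The antenna proteins hold the pigments that pass light energy to the photosystems. Both genes had their N2 libraries below N1 without overlap.

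Among the photosynthesis genes, the largest fall was that of ferredoxin NO09G00110, an electron carrier after photosystem I, which stood at 375 and 378 CPM in N1 and 117 and 107 CPM in N2, with 73.2 and 76.6 CPM in C0, and fell by 1.75 ± 0.058. The photosystem II manganese-stabilizing polypeptide NO24G01680, part of the oxygen-evolving complex, stood at 1430.4 and 1490.2 CPM in N1 and 891 and 930.5 CPM in N2 and fell by 0.68 ± 0.038. The chloroplast ATP synthase gamma chain NO23G00520 stood at 1183 and 1163 CPM in N1 and 625 and 702 CPM in N2 and fell by 0.82 ± 0.05. The latter 2 genes were named after their values were seen. The cytochrome b6-f iron-sulfur subunit NO05G02050, which passes electrons between the photosystems, stood at 1597 and 1649.6 CPM in N1 and 1274 and 1203 CPM in N2 and fell by 0.39 ± 0.043, with shared reads among 4 loci of the same description and adjoining identifiers possible.

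Pigment synthesis followed the same direction less completely. In porphyrin metabolism, the route to chlorophyll, 7 of 36 members rose and 18 fell, with a median of -0.32, and in carotenoid biosynthesis 4 of 19 rose and 13 fell, with a median of -0.25. Divinyl chlorophyllide 8-vinyl-reductase NO14G02550, a late step of chlorophyll synthesis, stood at 128 and 126 CPM in N1 and 70.5 and 73.7 CPM in N2 and fell by 0.81 ± 0.069. Pheophorbide a oxygenase NO09G00660, which opens the chlorophyll ring during chlorophyll breakdown, stood at 36.5 and 39.6 CPM in N1 and 90.4 and 91.2 CPM in N2 and rose with a log2 fold change of 1.26 ± 0.09 (adjusted p = 3.42e-08). Its C0 libraries were at 48.6 and 45.0 CPM, so that it was highest on the second day. Phytoene desaturase NO14G02800, an early carotenoid enzyme, stood at 22.2 and 15.6 CPM in N1 and 11.1 and 12.1 CPM in N2 and fell by 0.71 ± 0.2, a call that was lost without N1 replicate 1. The gene of the carotenoid list with the largest rise was NO16G00210, described as 6-hydroxynicotinate 3-monooxygenase, an oxygenase of a different pathway by its name, at 4.76 and 10.9 CPM in N1 and 21.1 and 22.01 CPM in N2.

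Central carbon metabolism and respiration were lower in the larger part of their called genes. In carbon fixation 10 of 45 members rose and 21 fell, in glycolysis 12 of 68 rose and 34 fell, in pyruvate metabolism 13 of 52 rose and 25 fell, and in the citrate cycle 7 of 37 rose and 19 fell (11 and 17 with library totals alone). Their medians were -0.15, -0.21, -0.16 and -0.23. NADP-dependent glyceraldehyde-3-phosphate dehydrogenase NO01G04930, which yields NADPH in the cytosol of plants, stood at 739.6 and 759 CPM in N1 and 233 and 232 CPM in N2 and fell by 1.69 ± 0.044. Fructose-bisphosphate aldolase NO19G01750, the gene of highest level per length in both the carbon fixation and glycolysis lists, stood at 1794 and 1856 CPM in N1 and 1204 and 1260 CPM in N2, with 341 and 343 CPM in C0, and fell by 0.57 ± 0.037. A different aldolase locus, NO01G03170, stood at 322 and 342 CPM in N1 and 108 and 114 CPM in N2 and fell by 1.58 ± 0.094.

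Single enzymes of these lists rose. Pyrophosphate-fructose 6-phosphate phosphotransferase NO09G03890, which can run the glycolytic step in either direction, stood at 14.3 and 14.3 CPM in N1 and 45.6 and 43.3 CPM in N2, with 9.33 and 13.02 CPM in C0, and rose with a log2 fold change of 1.64 ± 0.15. Phosphoenolpyruvate carboxykinase NO07G03330, which links the citrate cycle to sugar synthesis, stood at 1002 and 999 CPM in N1 and 1177 and 1203 CPM in N2 and rose with a log2 fold change of 0.25 ± 0.038. Cytoplasmic malate dehydrogenase NO05G03790 stood at 6.15 and 4.48 CPM in N1 and 26.1 and 29.2 CPM in N2 with no counts in C0, and rose with a log2 fold change of 2.37 ± 0.23, from counts that were not whole. For all of these genes the N2 libraries lay above N1. The citrate cycle list also held NO08G02730, a DCAF1 homolog that serves ubiquitin ligases, which stood at 809 and 812 CPM in N1 and 442 and 434 CPM in N2 and made its largest fall, of 0.89 ± 0.044.

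Of 55 members of oxidative phosphorylation 3 rose and 36 fell, with a median of -0.33, and 5 rose and 32 fell with library totals alone. The largest falls were not those of the respiratory chain but of proton pumps described as probable proton ATPase 1A and 1B. NO17G00440, the gene of highest level per length in the list, stood at 6044 and 6079 CPM in N1 and 2408 and 2477 CPM in N2, with 48.03 and 44.6 CPM in C0, and fell by 1.31 ± 0.028 (adjusted p = 5.15e-13). Its level in N1 was thus far above C0 and in N2 lay between them. The loci NO12G00370, NO12G00380 and NO12G00390, neighbours by identifier and chosen after their values were seen, fell by 1.22 ± 0.041, 1.06 ± 0.044 and 1.25 ± 0.031. Counts of these neighbours were not whole, and reads could have been shared among them. Of 11 genes described as subunits of the V-type proton ATPase, which acidifies vacuoles, 10 fell and none rose, with a median of -0.43. Of 16 genes of complex I and other NADH dehydrogenases, which feed electrons into respiration, 10 fell and none rose, with a median of -0.31, and 7 fell and 1 rose with library totals alone. In contrast, the vacuolar pyrophosphate-energized proton pump NO13G01250, which acidifies vacuoles from pyrophosphate, stood at 718 and 696 CPM in N1 and 1218 and 1198 CPM in N2, with 1388 and 1473 CPM in C0, and rose with a log2 fold change of 0.77 ± 0.039. These subgroups were formed from the descriptions after the values were seen.

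Genes of fatty acid synthesis and desaturation were lower on the second day in the larger part of called genes. In KEGG fatty acid biosynthesis 5 of 26 members rose and 16 fell, with a median of -0.47. Of 11 fatty acid synthesis loci that the study names, 1 rose, 9 fell and 1 did not pass, and their median was -1.03. All 4 desaturases that the study names fell, with a median of -1.95. The study discusses these loci, like the other loci so described below, with results of these same libraries, so their direction is not independent evidence.

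Acetyl-CoA carboxylase NO09G00220, which makes the malonyl-CoA that starts fatty acid synthesis, stood at 2759 and 2709.8 CPM in N1 and 1519 and 1641 CPM in N2, with 797 and 774 CPM in C0, and fell by 0.79 ± 0.037. Malonyl transacylase NO07G02760, which loads malonyl groups onto the acyl carrier protein, stood at 190.3 and 199 CPM in N1 and 90.6 and 97.97 CPM in N2 and fell by 1.04 ± 0.071. These genes had N2 libraries below N1, with acetyl-CoA carboxylase still above C0 and malonyl transacylase below it.

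The condensing enzymes fell further. Ketoacyl synthase III NO28G00420, which makes the first condensation, stood at 175 and 175 CPM in N1 and 35.01 and 38.5 CPM in N2, with 99.4 and 95.5 CPM in C0, and fell by 2.25 ± 0.075 (adjusted p = 1.41e-11). Ketoacyl synthase II NO04G04430, which extends the chain, stood at 199 and 196 CPM in N1 and 45.6 and 49.4 CPM in N2 and fell by 2.06 ± 0.072, and its homolog NO28G00410 stood at 848 and 845 CPM in N1 and 341 and 346 CPM in N2 and fell by 1.30 ± 0.045. Enoyl reductase NO23G00560, the last step of each cycle, stood at 517 and 516 CPM in N1 and 251 and 256 CPM in N2 and fell by 1.03 ± 0.047. These condensing enzymes were below C0 on the second day, whereas enoyl reductase remained above its C0 level of 151 and 153 CPM.

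The dehydratase NO16G02130 fell by 0.46 ± 0.071, and the mitochondrial acyl carrier protein NO29G00550 by 0.33 ± 0.093, a call lost without N2 replicate 2. NO30G00840, undescribed in the files and the highest of the 11 loci per length, stood at 2044 and 2146 CPM in N1 and 852 and 791 CPM in N2 and fell by 1.35 ± 0.041. The 1 locus of the 11 that rose was NO11G02690, described as a polyketide synthase, at 655 and 615 CPM in N1 and 1103 and 1103 CPM in N2, with 1348 and 1285 CPM in C0 and a log2 fold change of 0.80 ± 0.041. NO03G00560, described as a WD repeat protein, was at 41.4 and 32.4 CPM in N1 and 38.3 and 37.1 CPM in N2 and did not pass (adjusted p = 0.876). KEGG files the 3-oxoacyl reductase NO12G03960 of fatty acid synthesis under the spliceosome, where it made the largest fall of that list, from 531 and 585 CPM in N1 to 159 and 151 CPM in N2, by 1.85 ± 0.058.

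The desaturases, which insert double bonds into fatty acids, stood below C0 on the first day and lower again on the second. The delta-12 desaturase NO11G02480 stood at 354 and 366 CPM in N1 and 79.3 and 76.6 CPM in N2, with 1238 and 1308 CPM in C0, and fell by 2.21 ± 0.053. The desaturase NO28G00700, a (9-3)-desaturase by its description in the files, stood at 307 and 321 CPM in N1 and 74.5 and 73.97 CPM in N2, with 717 and 699 CPM in C0, and fell by 2.08 ± 0.053. The delta-5 desaturase NO16G02680 stood at 432 and 402 CPM in N1 and 114 and 123 CPM in N2, with 825 and 823 CPM in C0, and fell by 1.81 ± 0.055. In each of these genes C0 was highest, N1 intermediate and N2 lowest, with no overlap between groups. Counts of NO28G00700 were not whole in every library.

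The locus NO14G02790, described in the files as a delta-12 desaturase (fat-2), stood at 255 and 247 CPM in N1 and 70.8 and 72.1 CPM in N2 and fell by 1.81 ± 0.055. The study assigns this locus and NO28G00700 to other desaturase activities than the file descriptions do. Stearoyl-CoA desaturase NO16G01570, which makes the first double bond and is not one of the 4, stood at 711 and 703 CPM in N1 and 245 and 243 CPM in N2, with 1304 and 1322 CPM in C0, and fell by 1.53 ± 0.041. The fatty acid elongase NO29G00510 went the other way, at 51.5 and 48.8 CPM in N1 and 102 and 111 CPM in N2, with a log2 fold change of 1.09 ± 0.081. Across KEGG biosynthesis of unsaturated fatty acids 4 of 27 members rose and 12 fell, with a median of -0.19.

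Of 5 triacylglycerol assembly and droplet loci that the study names, 3 fell and 2 did not pass. The lipid droplet surface protein NO11G02550, so named by the study and undescribed in the files, stood at 6152 and 6338 CPM in N1 and 3268 and 3218 CPM in N2, with 1298 and 1291 CPM in C0, and fell by 0.95 ± 0.023 (adjusted p = 8.85e-13). Its N2 libraries lay between C0 and N1. NO28G01540, described as a 1-acyl-sn-glycerol-3-phosphate acyltransferase (LPAAT), which adds the second acyl chain, and so named by the study, stood at 115 and 106 CPM in N1 and 75.3 and 83.3 CPM in N2 and fell by 0.48 ± 0.078. The phospholipid:diacylglycerol acyltransferase NO13G01310, which makes triacylglycerol from membrane lipid, stood at 396 and 386 CPM in N1 and 341 and 366 CPM in N2 and fell by 0.15 ± 0.052, and this call was lost with library totals alone, with limma and without N1 replicate 1 or N2 replicate 1. NO12G00800, which the files describe as 1-acyl-sn-glycerol-3-phosphate acyltransferase 2 and the study names glycerol-3-phosphate acyltransferase, the enzyme of the first acyl chain, was at 364 and 357 CPM in N1 and 381 and 389 CPM in N2, with a log2 fold change of 0.097 ± 0.046, and the phosphatase NO05G01140, which makes diacylglycerol, was at 123 and 117 CPM in N1 and 104 and 108 CPM in N2, with -0.18 ± 0.083. Neither passed the test (adjusted p = 0.0882 and adjusted p = 0.077).

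Of 9 genes described as diacylglycerol O-acyltransferases, which make triacylglycerol from acyl-CoA, 3 rose and 6 fell, with a median of -0.27, and 3 rose and 4 fell with library totals alone. This group was formed from the descriptions after the values were seen. The study counts more encoded genes of this kind, so the group need not be the whole family. Diacylglycerol acyltransferase 1C, NO14G03060, stood at 7.14 and 6.39 CPM in N1 and 22.01 and 21.9 CPM in N2, with 26 and 30.4 CPM in C0, and rose with a log2 fold change of 1.69 ± 0.19. Diacylglycerol acyltransferase 2 at NO01G01000 had no counts in N1, and stood at 8.72 and 13.8 CPM in N2 and 47.2 and 50.3 CPM in C0. Against a floor of 3 counts per library this was at least 18.2-fold higher in N2, from counts that were not whole. The largest fall of the group, that of NO10G04120, was from 156 and 159 CPM in N1 to 65.6 and 62.4 CPM in N2, with 59.9 and 65.1 CPM in C0, by 1.30 ± 0.07, also from counts that were not whole. KEGG glycerolipid metabolism as a whole had 11 of 45 members higher and 21 lower, but more higher than lower with library totals alone or limma.

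Both triacylglycerol lipases that the study names rose, as did a gene of acyl activation. The triacylglycerol lipase SDP1, NO10G00490, which in Arabidopsis starts the use of seed oil, stood at 67.4 and 79.5 CPM in N1 and 114 and 107 CPM in N2, with 165 and 158 CPM in C0, and rose with a log2 fold change of 0.59 ± 0.081. The lipase NO25G00850, described as ROG1, stood at 3.57 and 3.62 CPM in N1 and 9.75 and 9.17 CPM in N2, with 12.5 and 12.8 CPM in C0, and rose with a log2 fold change of 1.39 ± 0.27, from counts that were not whole. A long-chain fatty acid-CoA ligase, NO25G00730, which activates free fatty acids, stood at 9.52 and 10.02 CPM in N1 and 182 and 174 CPM in N2, with 116 and 107 CPM in C0, and rose with a log2 fold change of 4.19 ± 0.1 (adjusted p = 9.14e-13). In the last gene N1 was about an order of magnitude below both of the other groups. Another ligase of that family, NO30G00460, stood at 249 and 246 CPM in N1 and 145 and 158 CPM in N2 and fell by 0.71 ± 0.056. In KEGG fatty acid degradation 7 of 26 members rose and 6 fell (26.9% and 23.1%, against 29.4% and 28.5% of all genes). The order of these counts turned with DESeq2, with whole counts only and without N2 replicate 2. In the peroxisome list 8 of 59 rose and 19 fell, its median of -0.042 turning positive with library totals alone and with limma. In glycerophospholipid metabolism, which makes membrane lipids, 17 of 51 rose and 15 fell, against 21 and 11 with library totals alone, an order not kept with DESeq2 size factors, with N1 and N2 libraries only, or without C0 replicate 1 or N2 replicate 2. In starch and sucrose metabolism 18 of 42 rose and 18 fell, but 19 rose and 9 fell with library totals alone, and the even count was not kept under a further 11 alternatives. Endoglucanase NO27G01700, which cuts glucan chains, stood at 9.32 and 9.81 CPM in N1 and 23.04 and 31.9 CPM in N2 and rose with a log2 fold change of 1.52 ± 0.2, while the endoglucanase NO10G03870 stood at 108 and 119 CPM in N1 and 42.4 and 44.2 CPM in N2 and fell by 1.39 ± 0.091.

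**Figure D3:**
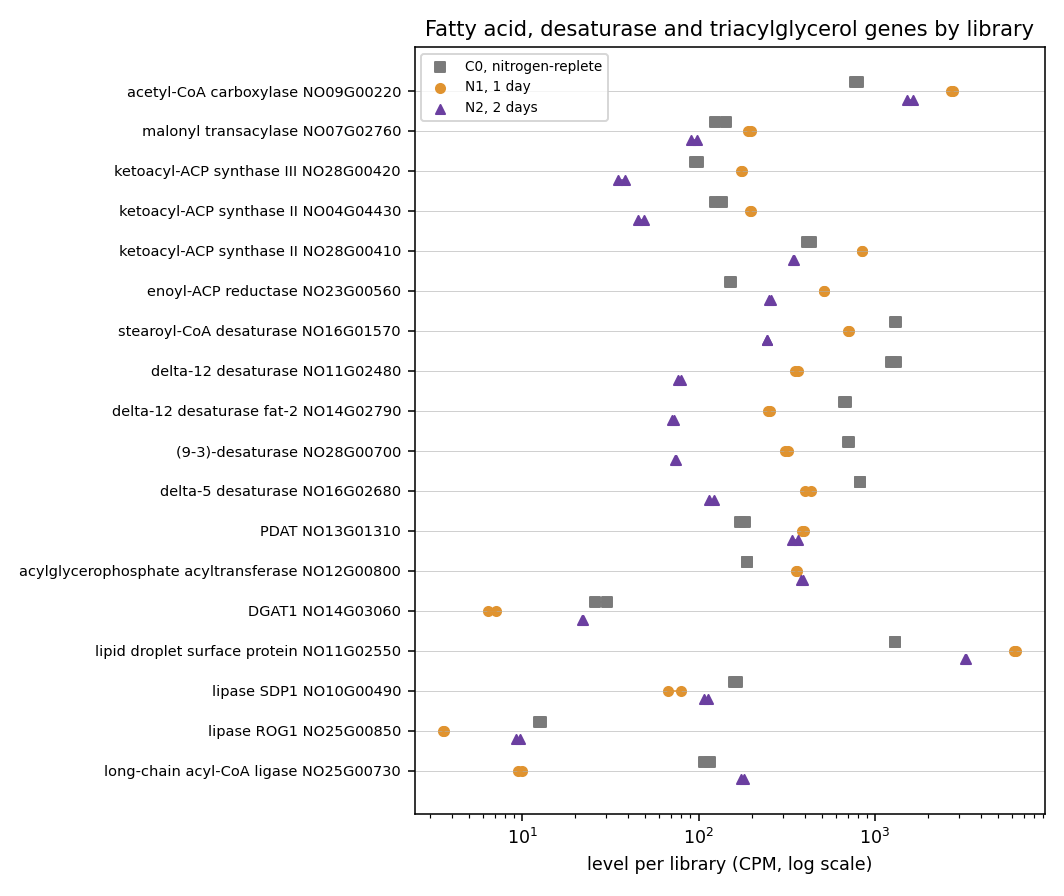
Level of 18 lipid genes in each library (CPM, log scale), with squares for C0, circles for N1 and triangles for N2. Fatty acid synthesis genes and desaturases lie lower in N2 than in N1, whereas DGAT1 (NO14G03060), the lipases SDP1 and ROG1 and the acyl-CoA ligase NO25G00730 lie higher, and the acylglycerophosphate acyltransferase NO12G00800 did not pass the test. Names are those of the file descriptions, except PDAT, DGAT1 and the droplet protein.

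Cytosolic ribosomal protein genes rose together, whereas genes that build ribosomes did not. In the KEGG ribosome list 78 of 115 members rose and 9 fell, with a median of 0.45 that ranged from 0.42 to 0.55 over the alternatives. Divided by description, 74 of 80 genes of the 40S and 60S subunits rose and 2 fell (median 0.59), while of 32 genes of the 30S and 50S subunits of plastid and mitochondrion 2 rose, 7 fell and 23 did not pass (5 rose and 6 fell with library totals alone). The cytosolic genes summed to 18800 and 19740 CPM in N1 and 28130 and 27950 CPM in N2, beside 43550 and 43610 CPM in C0. Both N2 libraries lay between N1 and C0. This division was made after the values were seen.

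The ribosomal gene of highest level per length, 40S protein S26 (NO09G01420), stood at 74.3 and 81.4 CPM in N1 and 114 and 92.9 CPM in N2 and rose with a log2 fold change of 0.41 ± 0.11, a call lost with limma and without N2 replicate 1. The largest rise, that of an S18 locus without a chromosome number, was at 7.93 and 0 CPM in N1 and 21.3 and 14.2 CPM in N2, and its call was lost with DESeq2, with limma and without N2 replicate 1. The largest fall was that of the organellar-type 50S protein L13 (NO01G00870), at 55.7 and 59.3 CPM in N1 and 41.95 and 45.7 CPM in N2, by 0.39 ± 0.096. In ribosome biogenesis 5 of 80 members rose and 35 fell, with a median of -0.17. NO10G01790, an enzyme that methylates ribosomal RNA, stood at 87.02 and 92.7 CPM in N1 and 50.2 and 47.8 CPM in N2 and fell by 0.87 ± 0.091. In the RNA polymerase list 3 of 28 members rose and 8 fell, an order not kept with library totals alone or limma. NO19G02000, the largest subunit of RNA polymerase III that transcribes 5S ribosomal and transfer RNA, stood at 133 and 129.6 CPM in N1 and 194 and 203 CPM in N2, with 466 and 451 CPM in C0, and rose with a log2 fold change of 0.59 ± 0.057.

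For charging of transfer RNAs the called genes went both ways, with 19 of 59 higher and 23 lower, and the larger share turned to higher with library totals alone and with limma. Methionine-tRNA ligase NO01G04580 stood at 50.2 and 46.9 CPM in N1 and 129 and 109 CPM in N2, with 127 and 135 CPM in C0, and rose with a log2 fold change of 1.29 ± 0.096. Aspartate-tRNA ligase NO13G01530 stood at 177 and 177 CPM in N1 and 94.1 and 86.7 CPM in N2 and fell by 0.97 ± 0.063. Of 129 spliceosome genes 15 rose, 41 fell and 73 did not pass, which is a share of falls of 31.8% against 28.5% of all genes. With library totals alone 24 rose and 27 fell, and the median of the list turned from -0.086 to 0.0086.

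Subunits of the proteasome, which degrades proteins tagged with ubiquitin, rose in most cases. Of 45 members 33 rose and 7 fell, with a median of 0.58 that ranged from 0.51 to 0.67. Their summed level was 2683 and 2707 CPM in N1 and 3569 and 3592 CPM in N2, beside 3678 and 3745 CPM in C0. By description, 16 of 18 regulatory subunits rose and 1 fell, with a median of 0.71, and 16 of 25 core subunits rose and 5 fell, with a median of 0.42. The difference between these subgroups was not tested.

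The regulatory subunit 12 gene NO17G00810 stood at 30.3 and 29.4 CPM in N1 and 76.1 and 80.5 CPM in N2, with 69.3 and 67.8 CPM in C0, and rose with a log2 fold change of 1.39 ± 0.094 (adjusted p = 1.91e-08). Regulatory subunit 6B, NO11G03130, an ATPase that unfolds substrates and the highest of the list per length, stood at 164 and 162 CPM in N1 and 198 and 208 CPM in N2 and rose with a log2 fold change of 0.32 ± 0.057. Of the members that fell, the activator subunit 4B (NO15G00610) stood at 175 and 169 CPM in N1 and 103 and 109.6 CPM in N2 and fell by 0.69 ± 0.062. The core subunit beta-5 locus NO02G02900, named after its values were seen, stood at 60.1 and 60.7 CPM in N1 and 42.8 and 36.4 CPM in N2 and fell by 0.61 ± 0.1. A number of subunits had more than 1 locus, so that single loci could share reads.

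**Figure D4:**
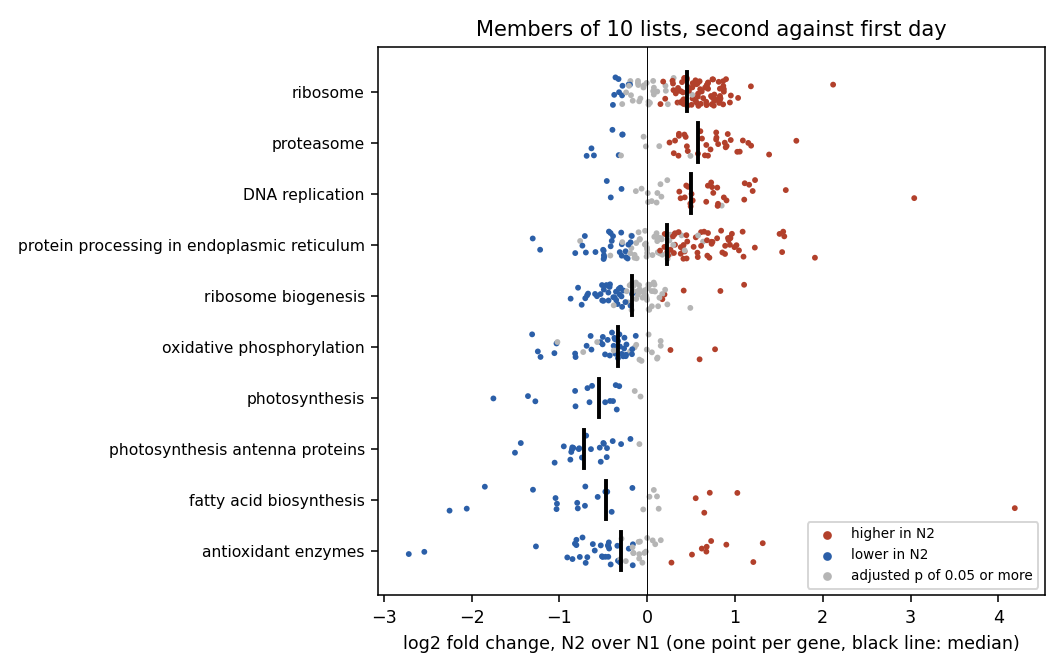
Each point is 1 gene of the list named at the left, placed by its log2 fold change of N2 over N1, and black lines are list medians. Ribosome, proteasome and DNA replication genes lie mostly to the right of 0, and antenna, photosynthesis and oxidative phosphorylation genes mostly to the left.

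Quality control of proteins in the endoplasmic reticulum was also higher in the larger part of called genes, with 57 of 124 members higher and 27 lower and a median of 0.23. The ubiquitin ligase HRD1 (NO15G01300), which marks misfolded proteins of the endoplasmic reticulum, stood at 42.4 and 38.6 CPM in N1 and 121 and 114 CPM in N2, with 128 and 137 CPM in C0, and rose with a log2 fold change of 1.54 ± 0.084. The peptide N-glycanase NO05G03320, which strips sugars from such proteins, stood at 22.2 and 23.2 CPM in N1 and 65.3 and 67.7 CPM in N2, with 60.1 and 67.97 CPM in C0, and rose with a log2 fold change of 1.55 ± 0.11. Outside this list, the lysosomal alpha-mannosidase NO08G00190, which trims mannose from glycans, stood at 40.04 and 47.96 CPM in N1 and 184 and 185 CPM in N2, with 212 and 200.3 CPM in C0, and rose with a log2 fold change of 2.07 ± 0.079. In these genes N1 lay below both C0 and N2, with no overlap. Counts of NO08G00190 were not whole in every library. The largest called fall of the list was that of NO27G00850, a cell division cycle protein 48 homolog. It stood at 22.4 and 25.6 CPM in N1 and 10.3 and 9.02 CPM in N2 and fell by 1.30 ± 0.2, from counts that were not whole. In ubiquitin mediated proteolysis 31 of 81 members rose and 24 fell, counts that were even with the DESeq2 test.

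In autophagy, by which cells digest their own contents in the vacuole, 7 of 29 members rose, 11 fell and 11 did not pass, with even counts under library totals alone. Autophagy-related protein 8 (NO26G00270), which coats the forming autophagosome, stood at 221 and 214 CPM in N1 and 116 and 122 CPM in N2, with 112 and 117 CPM in C0, and fell by 0.87 ± 0.057. The list also holds genes described as kinases of the TOR pathway, which in other organisms restrains autophagy when nutrients are plentiful. NO08G04260, described as TOR, stood at 23 and 18.3 CPM in N1 and 35.5 and 31.2 CPM in N2 and rose with a log2 fold change of 0.68 ± 0.14, while NO16G00740, described as mTOR, stood at 123 and 120.2 CPM in N1 and 62.5 and 67.2 CPM in N2 and fell by 0.91 ± 0.078. Mean N1 levels were 122 CPM and 166 FPKM (level per length) for NO16G00740, and 20.7 CPM and 3.27 FPKM for NO08G04260. The transcript of NO16G00740 is thus far the shorter, and whether it encodes a whole TOR kinase was not tested.

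DNA replication genes were higher on the second day. Of 40 members 26 rose, 3 fell and 11 did not pass, with a median of 0.500 that ranged from 0.46 to 0.60 over the alternatives with the same members. They summed to 1810 and 1832 CPM in N1 and to 2274 and 2277 CPM in N2, beside 2158 and 2184 CPM in C0. Of 7 loci of the MCM helicase, which opens the double strand, 5 rose and none fell, and all 5 loci of replication factor C, which loads the sliding clamp, rose.

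MCM2 (NO22G00890) stood at 162 and 161 CPM in N1 and 266 and 249 CPM in N2, with 282 and 263 CPM in C0, and rose with a log2 fold change of 0.67 ± 0.059 (adjusted p = 3.17e-07). MCM6 (NO03G05310) stood at 28.7 and 25.2 CPM in N1 and 60.7 and 55.9 CPM in N2, with 84.4 and 79.6 CPM in C0, and rose with a log2 fold change of 1.11 ± 0.11. The catalytic subunit of DNA polymerase epsilon (NO09G01170), which copies the leading strand, stood at 64.03 and 63.9 CPM in N1 and 107 and 106 CPM in N2 and rose with a log2 fold change of 0.74 ± 0.072. For these genes, named after their values were seen, N1 was the lowest group. Replication factor C subunit 3 (NO06G02850) stood at 8.13 and 13.2 CPM in N1 and 22.9 and 26.9 CPM in N2 and rose with a log2 fold change of 1.23 ± 0.21, and ribonuclease H2 subunit B (NO09G01260), which removes RNA from DNA, stood at 5.55 and 5.33 CPM in N1 and 15.95 and 16.7 CPM in N2 and rose with a log2 fold change of 1.58 ± 0.22. Replication factor A protein 2 (NO04G00690), which binds single strands, stood at 43.8 and 34.5 CPM in N1 and 54.4 and 52.6 CPM in N2 and rose with a log2 fold change of 0.44 ± 0.11, a call lost with DESeq2 and without N1 replicate 2. DNA ligase NO02G03050 stood at 74.5 and 64.8 CPM in N1 and 52.4 and 48.9 CPM in N2 and made the largest called fall, of 0.46 ± 0.094.

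The supply of nucleotides showed genes of both directions. In purine metabolism 27 of 118 members rose and 44 fell (22.9% and 37.3%), counts that were even with library totals alone. In pyrimidine metabolism 24 of 77 rose and 18 fell (31.2% and 23.4%), and 29 rose and 11 fell with library totals alone. The shares over all genes were 29.4% and 28.5%. Inosine monophosphate dehydrogenase NO02G03470, which commits purines to guanine nucleotides, stood at 1718 and 1751 CPM in N1 and 980.1 and 1006 CPM in N2, with 213 and 199 CPM in C0, and fell by 0.80 ± 0.04. Adenosine kinase NO22G00410, which salvages adenosine, stood at 14.3 and 18.97 CPM in N1 and 39.7 and 43.6 CPM in N2, with 115 and 106 CPM in C0, and rose with a log2 fold change of 1.33 ± 0.14. Thymidylate kinase NO13G01260, which serves DNA synthesis, stood at 11.9 and 10.02 CPM in N1 and 29.1 and 32.4 CPM in N2, with 33.3 and 35.6 CPM in C0, and rose with a log2 fold change of 1.48 ± 0.16.

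Antioxidant enzymes fell more often than they rose, with 9 of 56 members higher and 30 lower and a median of -0.30. Ascorbate peroxidase NO26G00430, which removes hydrogen peroxide, stood at 218 and 242 CPM in N1 and 36.3 and 33.5 CPM in N2, with 30.2 and 28.3 CPM in C0, and fell by 2.72 ± 0.081 (adjusted p = 4.98e-12). Both N2 libraries were close to C0 and below N1, from counts that were not whole. The largest called rise at a mean of at least 10 CPM was that of the thioredoxin-like NO11G03150, by 1.32 ± 0.24. It stood at 6.94 and 6.39 CPM in N1 and 19.2 and 14.1 CPM in N2. The member of highest level per length, NO04G04630, was at 1394 and 1386 CPM in N1 and 1330 and 1281 CPM in N2. It did not pass (adjusted p = 0.0601). Among heat shock and chaperone genes 19 of 79 rose and 26 fell, counts that were even with library totals alone. HSP90-alpha NO05G02550, a folding chaperone, stood at 565 and 564 CPM in N1 and 242 and 243 CPM in N2 and fell by 1.22 ± 0.044, and a heat shock factor, NO09G00420, which switches on chaperone genes, stood at 196 and 185 CPM in N1 and 361 and 368 CPM in N2, with 394 and 402 CPM in C0, and rose with a log2 fold change of 0.94 ± 0.051. The peroxisomal hydroxy-acid oxidase GLO1 (NO02G03110), whose relatives work in photorespiration, stood at 295 and 288 CPM in N1 and 109.6 and 112 CPM in N2 and fell by 1.39 ± 0.054.

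**Figure D5:**
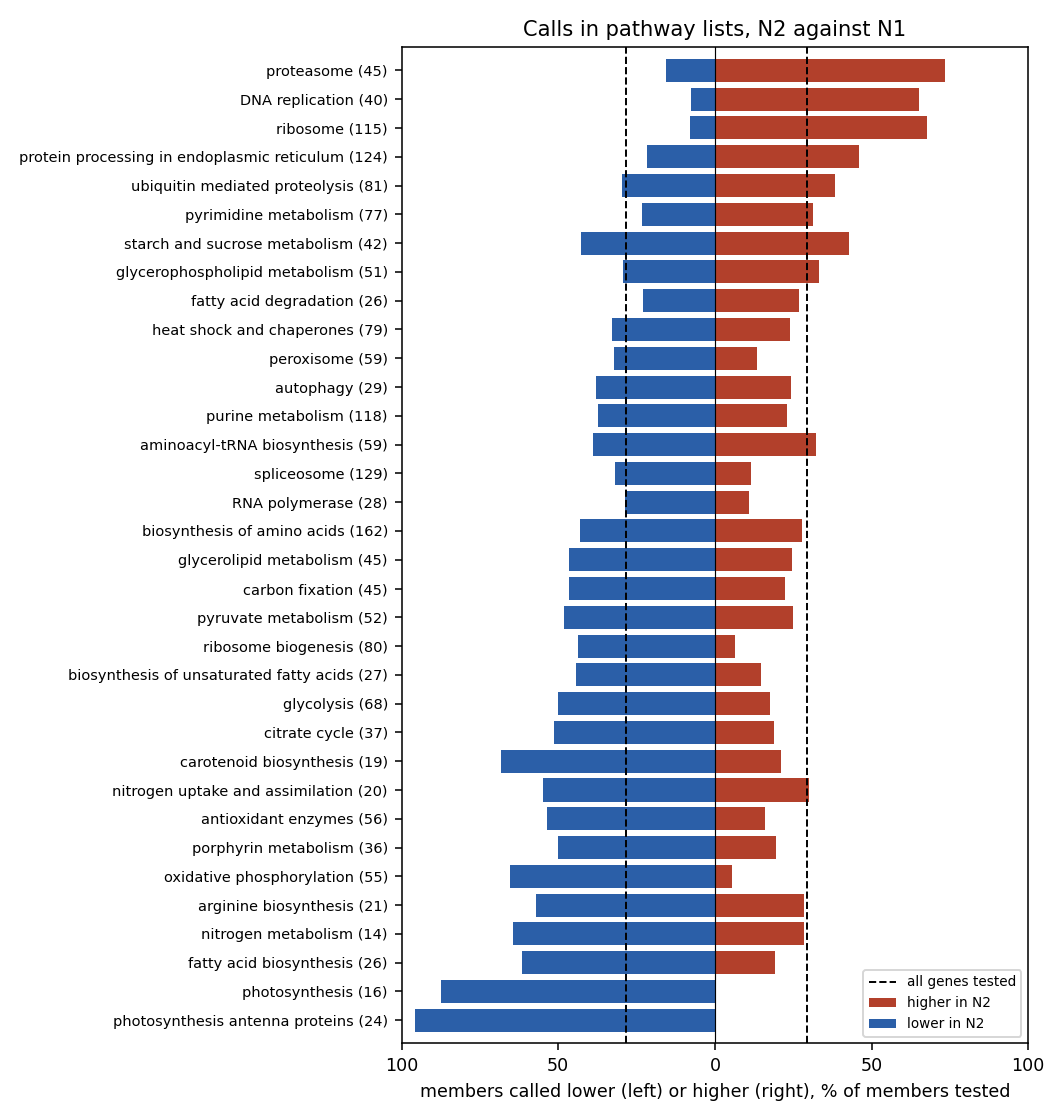
Share of the tested members of each of 34 lists that were called lower (left) or higher (right) in N2, in percent, with the number tested in parentheses and the share among all genes as dashed lines at 28.5% and 29.4%. Lists are ordered by their median log2 fold change, from antenna proteins at the bottom to the proteasome at the top.

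Of the 12 largest rises and 12 largest falls among called genes with a named function, several lost their call under an alternative or had counts that were not whole. NO13G02110, a homolog of the RNA surveillance helicase UPF1, had no counts in C0 or N1 and stood at 24.1 and 39.4 CPM in N2, which is at least 51.5-fold higher. The manganese-transporting ATPase homolog NO10G01290 stood at 4.96 and 6.82 CPM in N1 and 40.3 and 42.3 CPM in N2 and rose with a log2 fold change of 2.81 ± 0.2. Both genes had counts that were not whole, and no counts in C0. The dihydroxy-acid dehydratase NO18G02400, an enzyme of branched-chain amino acid synthesis, stood at 6.54 and 3.84 CPM in N1 and 24.4 and 22.5 CPM in N2, with 31.8 and 26.04 CPM in C0, and rose with a log2 fold change of 2.16 ± 0.23. DGS1 (NO25G01360), a mitochondrial protein that in plants affects galactolipid levels, stood at 19.4 and 21.95 CPM in N1 and 89.5 and 88.6 CPM in N2, with 115 and 122 CPM in C0, and rose with a log2 fold change of 2.11 ± 0.099. NO10G03910, described as a prenyltransferase that makes ether lipids in archaea, stood at 7.53 and 9.38 CPM in N1 and 44.9 and 46.6 CPM in N2 and rose with a log2 fold change of 2.44 ± 0.17. These last genes had whole counts, and in each N1 was the lowest group.

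The vacuolar sorting protein homolog NO16G02270, at 7.14 and 0.853 CPM in N1 and 26.3 and 17.6 CPM in N2, lost its call with DESeq2. The AP-3 adaptor subunit NO05G03050, which sorts vesicles, was at 24.98 and 0 CPM in N1 and 58.3 and 54.3 CPM in N2 and lost its call with DESeq2 and limma. The ubiquitin ligase HERC2 homolog NO01G03090, at 98.5 and 19.2 CPM in N1 and 12.3 and 0.153 CPM in N2, lost its call with DESeq2, with limma and without N1 replicate 1. For these genes 1 library of N1 stood far from the other.

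Among the falls, the thioredoxin NO11G02950, at 22.2 and 24.5 CPM in N1 and 0 and 8.10 CPM in N2, the capping enzyme homolog NO03G00940, at 19.2 and 20.7 CPM in N1 and 0.739 and 7.49 CPM in N2, and the phosphoglycolate phosphatase NO03G01450, at 66.4 and 65.4 CPM in N1 and 12.1 and 0 CPM in N2, lost their calls with DESeq2. The kinase-like protein TEX14 (NO13G00830) stood at 49.8 and 52.2 CPM in N1 and 6.79 and 5.50 CPM in N2, with 31.6 and 36.4 CPM in C0, and fell by 3.04 ± 0.16. Trehalose phosphorylase NO13G03070, which splits the storage sugar trehalose, stood at 16.9 and 16.4 CPM in N1 and 3.99 and 3.06 CPM in N2, with 0.794 and 0.383 CPM in C0, and fell by 2.23 ± 0.28. A short-chain dehydrogenase, NO18G00380, stood at 32.3 and 34.3 CPM in N1 and 5.76 and 7.03 CPM in N2 and fell by 2.38 ± 0.19, and NO10G02610, described as a cobalamin synthesis transferase, stood at 36.1 and 40.5 CPM in N1 and 7.24 and 4.58 CPM in N2 and fell by 2.69 ± 0.25. In these last genes N1 was the highest group.

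Conversely, the ectonucleotidase homolog NO01G02260 had 15.7 and 18.3 CPM in N1 and no counts in N2 or C0, which is at least 37.7-fold lower, and the tRNA methyltransferase NO10G02390 had 12.7 and 8.95 CPM in N1 and no counts in N2, at least 24-fold lower. In all, 5 genes had no counts in N1 and at least 10 CPM in N2, and 4 the reverse. None of those named here had whole counts in every library, so that a reassignment of shared reads was possible and was not tested.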

How the data were processed

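Poly-A RNA of N. oceanica IMET1 was sequenced as strand-nonspecific paired-end libraries, so that antisense and sense reads of overlapping genes are mixed. Per the submitters' notes and the study's methods, Trim Galore was used for trimming, STAR for alignment to the IMET1 assembly from NanDeSyn, Picard for duplicate marking, and featureCounts and StringTie for quantification. Versions are not given in the sources used here. The deposited tables hold an expected count (an estimated count that need not be whole) per gene, with TPM and FPKM, with column names like those of RSEM, which no source mentions. The authors normalized TPM and FPKM to gene length and depth. TPM, deposited by the authors, was not used. Tables of the authors' own comparisons hold log2 fold changes, p-values and false discovery rates and were not used.

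Expected counts were rounded to whole numbers, which changed no library total by more than 19.0, and 8003 of 10569 genes were whole in all 6 libraries (tolerance 0.005). Genes reaching 1 CPM in 2 or more of the 6 libraries were kept (9736), and the 833 others held 0.0135% of the counts. All 6 libraries were fitted by group in R 4.3.3 with edgeR 4.0.16 (TMM, two-sided quasi-likelihood test, Benjamini-Hochberg adjustment over all genes, adjusted p below 0.05). Standard errors were obtained as the absolute log2 fold change over the root of F. Levels per length are the deposited FPKM. With 2 libraries a group, the values of both are given in place of a mean. Replicates correlated at 0.977 (N1) and 0.979 (N2) on log2(FPKM + 1), and differed by more than counting noise (chi-square per gene 2.06 and 3.39), so that none was treated as a duplicate. Alternatives used limma 3.58.1 on log2(FPKM + 1), DESeq2 1.42.0, other scalings and filters, a replicate block and the omission of single libraries.

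Lists were taken from the KEGG, GO and KOG columns and the descriptions of the deposited tables, and are described by counts and medians beside those of all genes. The genes and lists were chosen with earlier results of these data known. Named genes were the 12 largest rises and 12 largest falls among called genes with a named function, no overlap between N1 and N2 and a mean of at least 10 CPM, in each list the largest called rise and fall at that mean and the gene of highest FPKM, nitrogen genes with at least 100 CPM in a group, the 5 genes of highest FPKM in N1 and in N2, genes with no counts in a group, and the lipid loci that the study names. Others are said to have been named after their values were seen. Not every gene that met the listed rules is described. None of the identifiers matched the RefSeq gene table at hand, so no coordinates or sequences are given.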

Additional observations from a re-analysis of the deposited data

How the results depend on the processing

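Counts of 2861 genes higher and 2772 lower stayed within 1.5 times of the main count under every alternative except the 2-fold requirement, with 847 higher and 356 lower. With 1 library of the 6 left out, 2473 to 2837 genes were higher and 2415 to 2731 lower. The share of rises among calls was 50.8%, and 61.1% with library totals alone, since TMM factors were 0.970 and 0.962 in N1 and 1.038 and 1.026 in N2. The DESeq2 test called 2009 genes higher and 2294 lower, and 4299 of its 4303 calls were shared in direction with edgeR. With limma on log2(FPKM + 1) 2960 genes were higher and 2115 lower, and with all libraries thinned to the lowest total, an alternative chosen after seeing the data, 5372 of the 5633 calls remained. With a replicate block 2810 genes were higher and 2717 lower. Deviations of same-numbered libraries correlated between groups at -0.051, 0.030 and -0.044 over 8426 genes, so that the numbers were taken only as names. Over the named genes no alternative reversed a called direction, and calls lost are given beside the genes concerned. Medians of all 38 lists moved by less than 0.108 under each alternative, except that with whole counts only 5 moved further (autophagy, photosynthesis, DNA replication and 2 of the lists named by the study). With 2 libraries a group, changes of small size are the least certain.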

Other observations

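Genes of the microtubule cytoskeleton, which the report did not describe, were higher on the second day. Of 34 tested genes with the GO term microtubule 26 rose and none fell, with a median log2 fold change of 0.79, against 29.4% higher and 28.5% lower over all genes. This was among the 5 GO terms of highest median among the 219 with at least 20 tested members, the other 4 being microtubule binding (14 of 21 higher and none lower, median 0.89), microtubule-based movement (13 of 22 higher and 1 lower), microtubule motor activity (13 of 22 higher and none lower) and cytoskeleton (19 of 26 higher and 2 lower). These terms share genes. Over the alternatives with the same members, 18 to 28 microtubule genes rose, with a median of 0.59 to 0.89. For microtubule binding 11 to 15 rose (median 0.60 to 0.99), and for microtubule motor activity 9 to 14 (median 0.50 to 0.88). In these 3 terms no member fell under those alternatives. In the deposited eukaryotic orthologous group (KOG) annotation, 60 of 98 genes of the cytoskeleton class rose and 16 fell. The genes below were named after their values were seen.

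Gamma-tubulin NO01G02860, which starts microtubule growth, stood at 19.2 and 18.97 CPM in N1 and 53.5 and 54.9 CPM in N2, with 39.3 and 46.9 CPM in C0, and rose with a log2 fold change of 1.502 ± 0.12. All 3 genes described as gamma-tubulin complex components rose, as did both katanin subunits, which cut microtubules. The katanin p60 homolog NO05G01670 stood at 14.5 and 20.7 CPM in N1 and 49.6 and 46 CPM in N2, with 89.5 and 85.8 CPM in C0, and rose with a log2 fold change of 1.45 ± 0.14, and the p80 subunit NO16G01790 stood at 9.91 and 12.2 CPM in N1 and 30.4 and 30.7 CPM in N2 and rose with a log2 fold change of 1.47 ± 0.16. In each of these genes N1 was the lowest group. Alpha-tubulin NO12G02410, a building block of microtubules, stood at 559 and 604 CPM in N1 and 758 and 826 CPM in N2, with 1184 and 1204 CPM in C0, and rose with a log2 fold change of 0.45 ± 0.05, and beta-tubulin NO10G00240 stood at 127 and 121 CPM in N1 and 219.7 and 231 CPM in N2 and rose with a log2 fold change of 0.87 ± 0.059. Of 14 tested kinesins, motors that walk on microtubules, 9 rose and none fell, with 6 to 10 rising over the alternatives. The actin loci differed, with NO03G02610 at 59.3 and 52.2 CPM in N1 and 151 and 190.0 CPM in N2, rising with a log2 fold change of 1.61 ± 0.11, and NO03G02620 at 654 and 663 CPM in N1 and 597 and 589.6 CPM in N2, which fell by 0.15 ± 0.042, a call lost with library totals alone. Their counts were not whole, and reads shared between actin loci could have been divided among them.

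Among the 72 KEGG pathways outside the lists of the report with at least 10 tested members, those with the largest share of members higher were plant MAPK signalling (23 of 33 higher and 4 lower), plant hormone signal transduction (11 of 17 and 2) and mismatch repair (17 of 29 and 4). The kinase NO14G02700, a MAP kinase kinase, stood at 9.12 and 13.6 CPM in N1 and 31.9 and 30.4 CPM in N2 and rose with a log2 fold change of 1.46 ± 0.18. NO27G00480, an SNF-related kinase of a family that senses energy and nutrients, stood at 71.6 and 74.8 CPM in N1 and 163 and 160.2 CPM in N2 and rose with a log2 fold change of 1.14 ± 0.072. The largest shares of members lower were in biotin metabolism (none of 14 higher and 9 lower), in alanine, aspartate and glutamate metabolism (4 of 26 higher and 16 lower) and in ubiquinone and terpenoid-quinone synthesis (4 of 16 higher and 9 lower), pathways that share genes with fatty acid and amino acid synthesis. Of 66 genes of vesicle-mediated transport 39 rose and 9 fell.

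Large changes were also found in genes with no description. These made up 356 of the 847 genes at least 2-fold higher and 153 of the 356 at least 2-fold lower. Among all 9736 genes tested, 3180 had no description. NO29G01660 stood at 567 and 585 CPM in N1 and 2857 and 2826 CPM in N2, with 103 and 111 CPM in C0, a log2 fold change of 2.30 ± 0.04. NO02G05800, among the 5 genes of highest level per length in N2, stood at 1112 and 1126 CPM in N1 and 2894 and 3058 CPM in N2, with 30.4 and 29.9 CPM in C0, a log2 fold change of 1.41 ± 0.035. Both rose, and their C0 libraries lay below N1. NO02G00670 stood at 25.8 and 27.1 CPM in N1 and 295 and 315 CPM in N2, with 351 and 329 CPM in C0, and rose with a log2 fold change of 3.53 ± 0.079, so that its N1 level was the lowest, while NO23G01890 stood at 342 and 342 CPM in N1 and 21.1 and 25.5 CPM in N2, with 133 and 139 CPM in C0, and fell by 3.88 ± 0.076. Among described genes outside the lists, NO02G03890, a high mobility group protein of the kind that bends DNA in chromatin, stood at 344 and 340.0 CPM in N1 and 85.4 and 78.7 CPM in N2, with 115 and 115 CPM in C0, and fell by 2.06 ± 0.058. All of these genes except NO02G05800 were named after their values were seen.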
